A study of Mus musculus with 3 samples.

Results

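J1 mouse embryonic stem cells (mESCs) expressed every one of 10 core genes of the Wnt/β-catenin pathway after 24 h with PD0325901 (PD), which blocks the kinase MEK. The genes were Ctnnb1, Tcf7, Tcf7l1, Tcf7l2, Lef1, Axin1, Axin2, Gsk3a, Gsk3b and Apc. Their probes were taken as all those whose transcript accession belongs to 1 of these symbols, with no threshold on a measured value. This gave 17 of 27235 probes that could be named, and 10 of 20660 named genes on the array. The study used expression arrays to follow what PD does to mESCs. The 3 samples formed 1 group, J1 cells of strain 129S4/SvJae labelled as derived from the inner cell mass, grown on gelatin in Knockout DMEM with Knockout Serum Replacement and leukemia inhibitory factor (LIF) at 1000 U/mL, and treated with 1 µM PD for 24 h. J1 is a single established line, so the values describe 1 genetic background, and per the study's methods the 3 samples came from independent experiments. Cells without PD were not analysed here, so none of the values below is an effect of PD.

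Wnt ligands bind Frizzled receptors and the co-receptors Lrp5 and Lrp6 at the cell surface. Without a ligand, a destruction complex built on the scaffolds Axin and Apc lets the kinase Gsk3 phosphorylate β-catenin, which is then degraded. With a ligand, β-catenin accumulates, enters the nucleus and binds the TCF/LEF transcription factors at their target genes. In mESCs the repressor Tcf7l1 holds down several pluripotency genes, and β-catenin relieves that repression. Inhibitors of Gsk3 are combined with PD in culture media for these cells.

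Each sample was hybridised in 1 colour to its own array, and the 3 arrays lay on 1 slide and were read in 1 scan. The signal of a spot is its background-subtracted brightness in intensity units. The lowest signals flagged as well above background were between 10.1 and 11.4, and no spot was saturated. A level is the log2 of the signal minus that of the 75th percentile of the array, which was at a signal of 551, 511 and 527 on replicates 1 to 3. Replicate 2 stood apart in 187 spots marked as non-uniform, against 25 and 8 on replicates 1 and 3, and 6 of 48 blocks of its array held at least 10 of them. No spot of the 17 probes lay in these blocks or carried an outlier flag. Errors are SDs over the 3 arrays (n = 3).

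On each of the 3 arrays all 10 genes were flagged as well above background, as were 72.7% of the 20660 named genes. This held for each of the 17 probes, beside 72.4% of all named probes. In the 5 genes with more than 1 probe every probe was thus detected, and 68.8% of the 5476 genes with several probes had all of them detected. With 10 genes no more than this count was read from these shares.

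**Figure D1:**
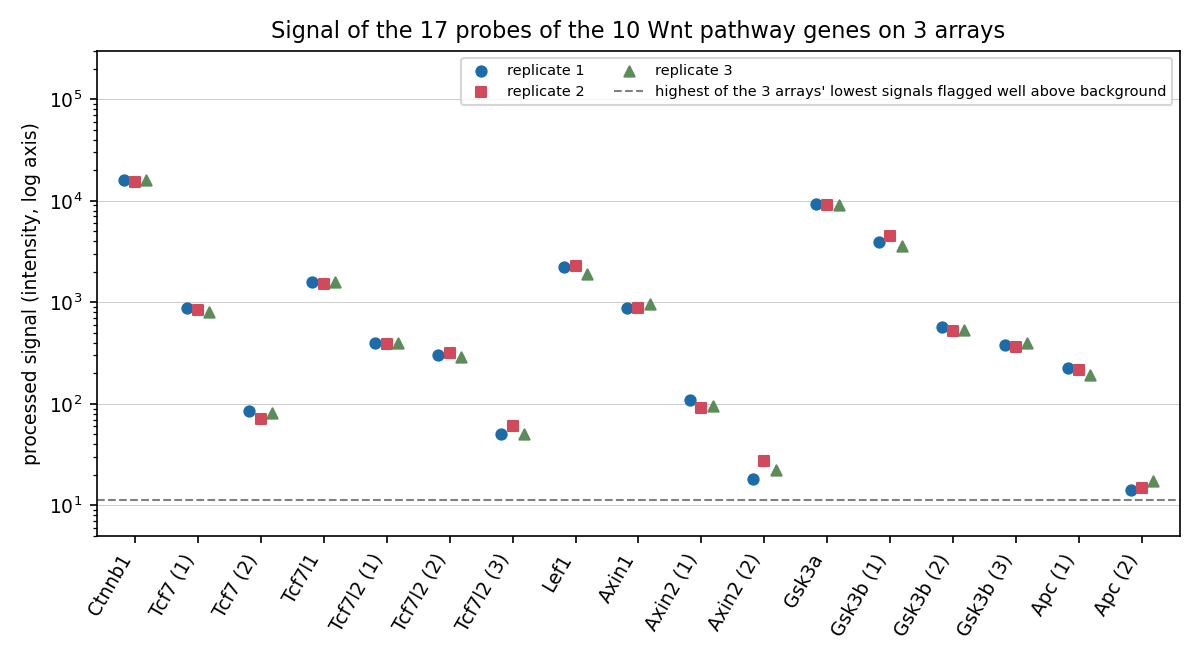
Processed signal (intensity, log axis) of the 17 probes on the 3 arrays. Numbers in brackets order the probes of a gene from bright to dim. The dashed line is a signal of 11.4, the highest of the 3 arrays' lowest signals flagged as well above background. A spot above the line is not always flagged. All points lie above the line, and the dimmer probe of Apc is nearest to it.

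Ctnnb1, which encodes β-catenin itself, gave signals of 16045, 15180 and 15985 on replicates 1 to 3. The 3 arrays were close to each other, and replicate 2 was the lowest in raw signal. After scaling, the level was 4.89 ± 0.029, and the highest array was 1.04-fold above the lowest. Ctnnb1 is one of 2 genes here whose probe was spotted more than once, with 2 spots on each array. The second of them, in the order of the scanner files, was 1.08-fold, 1.06-fold and 1.08-fold brighter than the other on replicates 1 to 3, so spots of 1 array differed more than scaled levels of different arrays did. β-catenin also links E-cadherin to the actin skeleton at cell junctions, and the E-cadherin gene Cdh1 gave signals of 5591, 5216 and 5247. Of the 10 spots of the Cdh1 probe, 1 lay in a block of replicate 2 with many non-uniform spots, and the Cdh1 level over the 3 arrays was 3.33 ± 0.016.

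The TCF/LEF family read β-catenin out at the DNA, and its 4 genes were all detected. Tcf7l1, the repressor named above, gave signals of 1591, 1527 and 1587, with a level of 1.57 ± 0.032. Tcf7l1 was thus measured as evenly as Ctnnb1, with a 1.04-fold difference between the highest and the lowest array. Lef1, which acts mostly as an activator and is itself switched on by Wnt signalling in many tissues, gave signals of 2249, 2271 and 1920. Replicate 3 was the low one, and the level was 2.02 ± 0.14, with a 1.22-fold range. In a bulk culture, fewer cells that express such a gene and less RNA per cell cannot be told apart.

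Tcf7, which encodes TCF1, was read by 2 probes with the same transcript accession. The brighter probe gave signals of 884, 840 and 798, and its level was 0.67 ± 0.060. The dimmer probe gave 84.8, 71.0 and 82.2, and its level was -2.74 ± 0.092. Replicate 2 was the highest array for the brighter probe after scaling and the lowest for the dimmer one, so the small differences between arrays did not run together in this gene. Both probes stayed within a 1.12-fold range.

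Tcf7l2, which encodes TCF4, was read by 3 probes, each named for another transcript variant (NM_001142923, NM_001142920 and NM_001142918). The probe for the first variant gave signals of 401, 385 and 399, with a level of -0.42 ± 0.032. The probe for the second gave 303, 318 and 289, with a level of -0.80 ± 0.10. The probe for the third gave 51.0, 61.1 and 50.9, with a level of -3.29 ± 0.20. After scaling, replicate 2 was the high array in the second and the third, by up to 1.29-fold, and replicate 3 was the highest in the first. Whether a probe reads only the variant it is named for was not checked. Brightness depends also on the sequence of a probe, so these levels do not give the share of each variant.

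The scaffolds of the destruction complex differ in how they are controlled: Axin1 is made steadily in most cells, and Axin2 is a direct target of β-catenin and TCF that feeds back on the pathway. Axin1 gave signals of 875, 880 and 967, with a level of 0.78 ± 0.10 that was highest on replicate 3. The brighter probe of Axin2 gave signals of 109, 91.6 and 94.4, with a level of -2.43 ± 0.081. Its dimmer probe gave 18.2, 27.5 and 22.4, with a level of -4.57 ± 0.35. This was the largest SD of the 17 probes, with replicate 2 at 1.63 times replicate 1 after scaling. The brighter probe of Axin2 ran the other way, highest on replicate 1, so the probes of this gene named no common order of the samples.

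Axin2 and the transcription factor gene Sp5 are both known as targets of the pathway, and their promoters are shown here because they differ in the motif that TCF/LEF proteins recognise. The sequences are those of RefSeq (GRCm38.p6), from 250 bases before to 50 bases after the gene's start, at chr11:108920099-108920398 for Axin2 and chr2:70474673-70474972 for Sp5, both on the + strand. Capitals mark the core CTTTG on either strand (CAAAG on the other), and the longer motif CTTTGAT contains the core.
Axin2: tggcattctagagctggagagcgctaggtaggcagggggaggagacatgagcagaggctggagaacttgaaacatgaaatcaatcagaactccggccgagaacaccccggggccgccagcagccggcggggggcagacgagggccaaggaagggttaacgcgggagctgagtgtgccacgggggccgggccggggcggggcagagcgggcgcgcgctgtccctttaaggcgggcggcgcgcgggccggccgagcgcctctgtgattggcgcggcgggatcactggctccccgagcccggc
Sp5: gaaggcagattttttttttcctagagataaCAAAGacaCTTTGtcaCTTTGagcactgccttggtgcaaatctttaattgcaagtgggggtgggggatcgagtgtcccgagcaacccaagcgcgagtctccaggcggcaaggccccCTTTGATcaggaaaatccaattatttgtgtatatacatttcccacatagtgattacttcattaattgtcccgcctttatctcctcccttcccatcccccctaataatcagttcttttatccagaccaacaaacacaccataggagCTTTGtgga
The window of Sp5 held 1 copy of CTTTGAT and 5 of the core including that copy, whereas that of Axin2 held neither. Sites outside these windows were not searched for, so this does not show that Axin2 lacks them. The promoter table held 7 windows of 6 of the listed genes that Wnt signalling activates, and 1 of the 7, that of Sp5, held CTTTGAT. Of the 10 genes, 8 were in the promoter table with 14 windows, some of them overlapping, and Axin1 and Apc were not. CTTTGAT or its reverse was in 0 of these 14 windows, beside 3.73% of all 32851 windows, and the core was in 9 of 14, beside 53.9% of all. Their CG dinucleotides ranged from 5 to 51 per window with a median of 21, and the median of all windows was 7. In these samples Sp5 gave signals of 83.8, 82.5 and 90.2, with a level of -2.63 ± 0.085.

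The kinases of the complex were next. Gsk3a gave signals of 9300, 8995 and 9055, with a level of 4.11 ± 0.029 and the smallest relative spread of raw signals among the 17 probes, a coefficient of variation of 1.77%. Gsk3b, which shares most of its kinase domain with Gsk3a, was read by 3 probes for the same transcript. The brightest gave signals of 3891, 4487 and 3562, with a level of 2.90 ± 0.20. The second gave 576, 527 and 528, with a level of 0.04 ± 0.032, and the third gave 380, 366 and 393, with a level of -0.48 ± 0.056. The brightest probe alone put replicate 2 on top by 1.30-fold over replicate 3, while the others stayed within 1.04-fold and 1.08-fold. Without replicate 2 the SD of the brightest probe was 0.045.

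Apc, the large scaffold that is lost in many colon tumours, was read by 2 probes with the same accession. The brighter gave signals of 224, 217 and 194, with a level of -1.32 ± 0.10 that was lowest on replicate 3. The dimmer gave 14.2, 14.9 and 17.3, with a level of -5.11 ± 0.17 that was highest on replicate 3. The dimmer probe had 2 spots per array, and on replicate 2 they read 17.5 and 12.3, of which only the first was flagged as well above background. Its detection there thus rested on 1 spot, and the scanner software put its error at 17.7% to 21.1% of the signal, against 10% for the bright probes of Ctnnb1 and Gsk3a.

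Probes of a gene disagreed far more in brightness than arrays did. Between the brightest and the dimmest probe the difference in mean level was 2.13 log2 units in Axin2, 2.87 in Tcf7l2, 3.38 in Gsk3b, 3.41 in Tcf7 and 3.79 in Apc. The range over the arrays was at most 0.71 log2 units in any of the 17 probes. A statement on the amount of 1 of these 5 transcripts therefore depends on the probe taken. In each of the 5 genes all probes were detected, and the probes did not all have the same replicate as the highest.

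**Figure D2:**
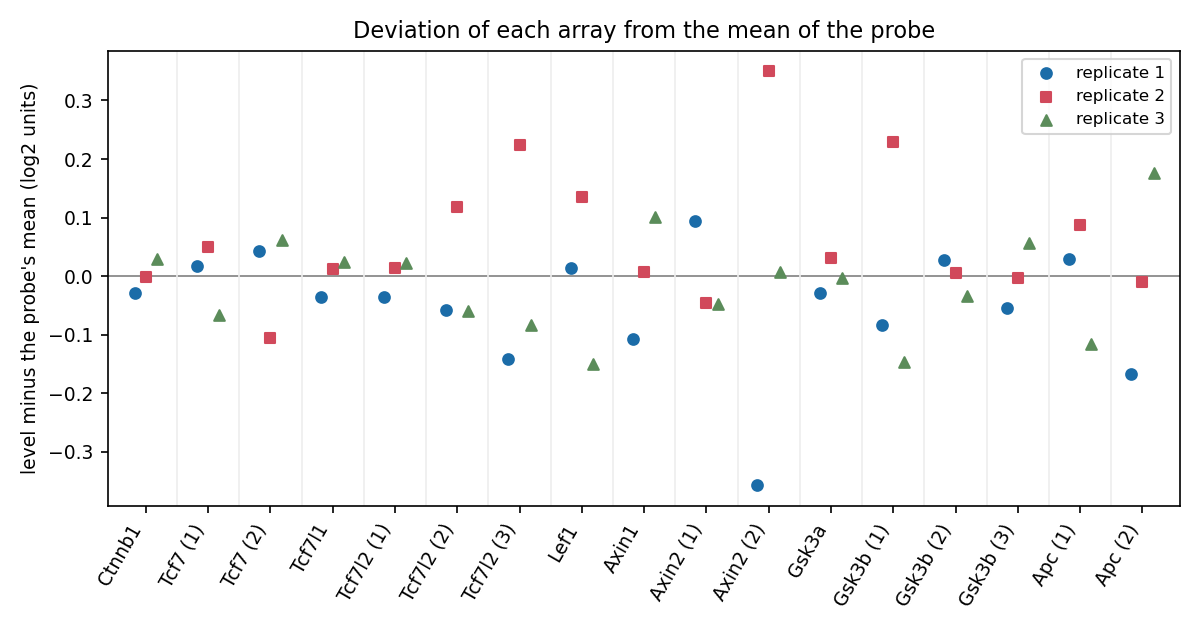
Level on each array minus the mean of the probe over the 3 arrays (log2 units), for the same 17 probes. The dimmer probe of Axin2 spans 0.71 log2 units, and the third probe of Tcf7l2 and the brightest of Gsk3b have replicate 2 above the other arrays.

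The replicate error of these genes was close to that of the array at large. The median SD of the 17 probes was 0.092 log2 units, and that of all 33474 detected probes was 0.090. None of the 17 probes spanned over 1 log2 unit between arrays, beside 1.85% of the detected probes. The SD depends on brightness, with medians of 0.19, 0.11, 0.071 and 0.058 in 4 equal parts of the detected probes from dim to bright. Against the median of its own part, the SD was smaller in 11 of the 17 probes. As a ratio, the brightest probe of Gsk3b was farthest above its part, with 0.20 against 0.058, followed by Lef1 with 0.14 against 0.058 and the dimmer probe of Axin2 with 0.35 against 0.19.

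This spread was smallest when replicate 2 was left out, as it was on the whole array. Without replicate 2 the median SD was 0.045 log2 units over the 17 probes and 0.063 over all detected probes. It was 0.083 and 0.079 without replicate 1, and 0.081 and 0.079 without replicate 3. These SDs over 2 arrays compare with each other and not with the SDs over 3 arrays. The median difference between arrays was 0.11 log2 units for replicates 1 and 2, 0.064 for 1 and 3 and 0.12 for 2 and 3, and over all detected probes it was 0.11, 0.090 and 0.11. Replicate 2 was the highest array in 8 of the 17 probes, beside 41.4% of all detected probes. Replicate 1 was the lowest in 9, and the share of all probes for this was not computed. These counts moved with the scaling. Replicate 2 was highest in 6 of the 17 probes when the median of the array was used, beside 22.6% of all detected probes. After normexp background correction it was highest in 12, beside 46.6%. No common direction of the 17 probes between the samples was thus read.

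**Figure D3:**
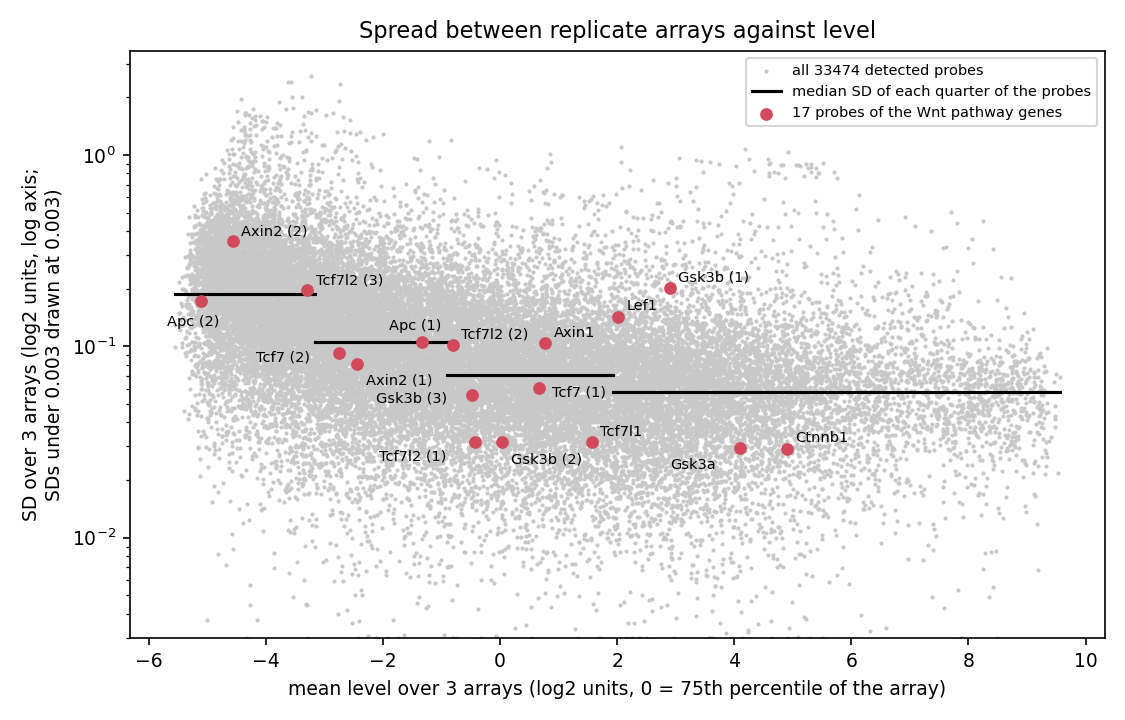
SD over the 3 arrays (log axis) against mean level for 33474 detected probes (grey) and the 17 probes of the Wnt pathway genes (red). Black lines are the median SDs of 4 equal parts of the probes, 0.19, 0.11, 0.071 and 0.058, and the brightest probe of Gsk3b and Lef1 lie above the line of their part.

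The other genes of the pathway were then listed by role, 108 genes in 10 lists beside the 10 described above. Of these 108 genes 86 (79.6%) were detected on all 3 arrays by their brightest probe, beside the 72.7% of all named genes. The shares of the single lists below stand beside the same 72.7%. The rest of the 108 genes comprised 15 detected on no array and 7 on 1 or 2 arrays, and no other probe of these 22 genes was detected on all arrays. Among the 86 detected genes the median SD was 0.072 log2 units and 0 spanned over 1 log2 unit.

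Of the ligands, 10 of 19 Wnt genes (52.6%) were detected on all arrays. By the brightest probe of each gene, Wnt1 was the highest of them, with signals of 985, 1012 and 1060, and Wnt5b gave 454, 451 and 428. Wnt1 and Wnt4 have 2 probes each, of which only the brighter is given here. Wnt8a, a ligand of the early embryo, gave signals of 81.6, 68.4 and 69.3, and Wnt4 gave 50.6, 66.2 and 46.7. Wnt3, needed for the primitive streak, gave 10.1, 10.4 and 11.8 and was well above background only on replicate 3. Wnt3a, the ligand most used to activate the pathway in culture, gave 3.02, 24.6 and 3.06. Only replicate 2 was well above background for Wnt3a, and its spot lay in a block of that array with at least 10 non-uniform spots, whose part in the value was not tested. Wnt7b was detected on 2 arrays and Wnt10b on 1, and Wnt2, Wnt2b, Wnt7a, Wnt8b and Wnt9b on none. Both genes of ligand secretion were detected, Porcn (the acyltransferase that adds the lipid) with a level of 3.37 ± 0.037 and Wls (the carrier) with -0.69 ± 0.044.

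Receptors were nearly complete, with 14 of 15 genes (93.3%) detected, all but Ror1. The co-receptor Lrp6 gave signals of 4381, 4121 and 3892, and Lrp5 gave 1809, 1839 and 1940. Among the Frizzled genes, Fzd7 had a level of 1.15 ± 0.036 and Fzd5 of -0.17 ± 0.056. Of the 15 Dishevelled genes and partners of the destruction complex, all were detected, and so were all 14 nuclear co-regulators. Dvl2, which carries the signal from the receptor, had a level of 1.96 ± 0.023, and Csnk1a1, the kinase that primes β-catenin for Gsk3, of 4.43 ± 0.012. The ubiquitin ligase gene Btrc had a level of 0.13 ± 0.078, and Tnks, whose product destabilises Axin, of -0.36 ± 0.12. In the nucleus, the co-activator genes Bcl9 and Pygo2 had levels of -2.82 ± 0.14 and 4.14 ± 0.083, the co-repressor gene Tle4 of -0.44 ± 0.11, and Ctnnbip1, an inhibitor of β-catenin, of 2.36 ± 0.070.

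In the list of secreted inhibitors 9 of 14 genes (64.3%) were detected. This list also holds Kremen1 and Kremen2, which encode membrane proteins and were both detected. Notum, an enzyme that removes the lipid from Wnt ligands, gave signals of 10938, 10761 and 10392, and the Wnt-binding Sfrp1 gave 1428, 1294 and 1472. Dkk1, which blocks the co-receptors, was well above background on 2 arrays with signals of 15.95, 16.5 and 7.61. Frzb, Dkk2, Dkk4 and Sost were detected on no array. In the R-spondin module, which sets how many receptors stay at the surface, 4 of 9 genes (44.4%) were detected. They included the receptor-removing ligases Rnf43 (level -3.69 ± 0.20) and Znrf3 (-2.40 ± 0.18) and the R-spondin receptor Lgr4 (-0.21 ± 0.13). Lgr5 gave signals of 2.42, 2.78 and 2.43 and, like Rspo2, Rspo3 and Rspo4, was detected on no array, and Lgr6 was detected on 1.

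**Figure D4:**
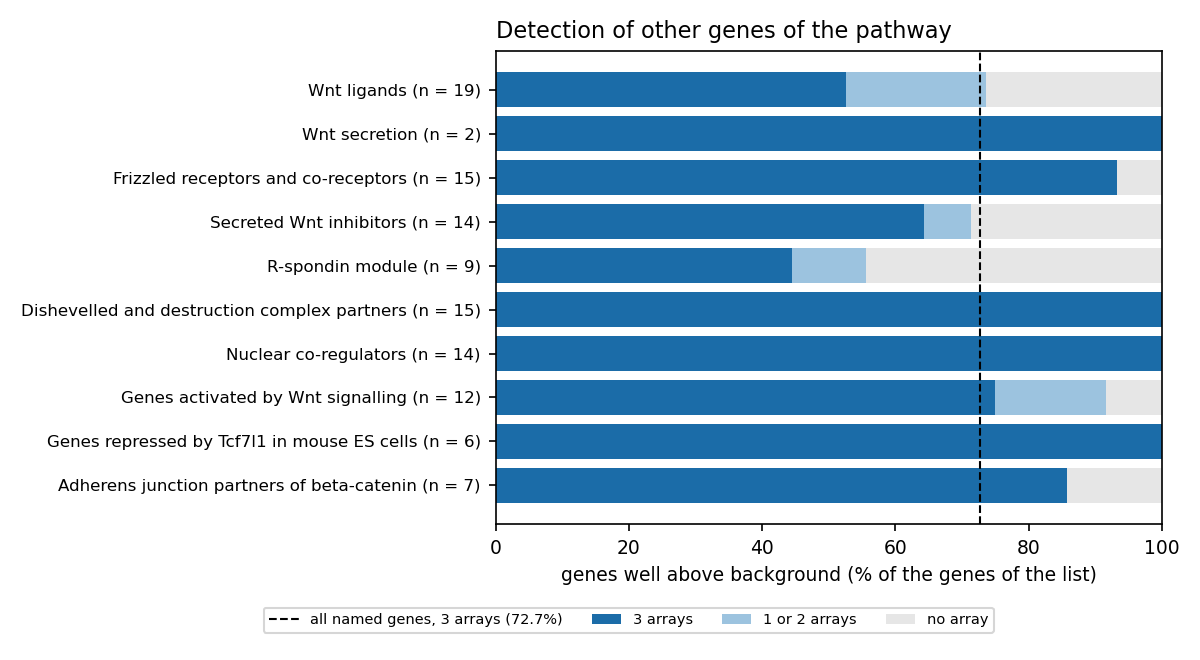
Share of the genes of each list that were well above background on 3 arrays, on 1 or 2 arrays, or on none. The dashed line is the share of all named genes detected on 3 arrays, 72.7%. The ligands (52.6%), the list of secreted inhibitors with Kremen1 and Kremen2 (64.3%) and the R-spondin module (44.4%) lie to its left.

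Of 12 genes that Wnt signalling activates in embryonic or adult tissues, 9 (75%) were detected, close to the 72.7% of all named genes. Cdx1 had a level of -0.09 ± 0.089, the feedback inhibitor gene Nkd1 of -2.43 ± 0.12 and the cyclin gene Ccnd1 of 3.27 ± 0.062. T, which encodes Brachyury, and Dkk1 were detected on 2 arrays, and Lgr5 on none. All 6 genes known to be repressed by Tcf7l1 in mESCs were detected, beside the same 72.7%. Esrrb, with signals of 42313, 42672 and 38256, had a level of 6.28 ± 0.10, and Klf2 had a level of 5.79 ± 0.076. Tfcp2l1 had a level of 3.84 ± 0.085 and Nanog of 0.39 ± 0.048. Of the 7 adherens junction genes 6 (85.7%) were detected, all but Ctnna2. Ctnna1 (α-catenin), which binds β-catenin there, had a level of 6.31 ± 0.026, Ctnnd1 (p120-catenin) of 4.11 ± 0.025, and Jup, the plakoglobin gene related to Ctnnb1, of -2.77 ± 0.080.

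The label of the cells was checked against markers. All 8 mESC markers were detected, beside 72.7% of all named genes. Their summed signal was between 323200 and 350585 on the 3 arrays. Most of this sum came from Dppa5a, with signals of 206458, 202351 and 189708. Of 8 fibroblast markers 4 were detected on all arrays, with a summed signal of the list between 1330 and 1437. The 4 were Col1a1, Col1a2, Pdgfrb and Thy1, Col3a1 was detected on 1 array, and Lum, Postn and Col5a2 on none. Thy1 gave signals of 612, 640 and 619, close to the mESC marker Nanog with 695, 690 and 689. Whether cells other than mESCs added to the signals of the Wnt pathway genes was not tested. Pou5f1, with signals of 11265, 16872 and 10239, was high on replicate 2, with a range of 0.76 log2 units that exceeded those of all 17 Wnt pathway probes. Sox2, with signals of 6453, 4835 and 6827, was low there.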

How the data were processed

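RNA of 3 PD-treated J1 samples was hybridised in 1 colour (Cy3) to 3 Agilent mouse arrays. Per the file headers, the intensities were made with Agilent Feature Extraction 10.7.3.1, which subtracted the background and corrected spatial trends within each array. The deposited intensities were not normalized between arrays. The authors also deposited a table on the log2 scale, whose normalization is not stated. Across probes, which are not independent replicates, it followed the log2 signal of each array with Pearson's r from 0.999867 to 0.999979, and its median was 5.18 in every column. It served as an alternative.

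Probes were named by matching their accession, without version, to RefSeq genes (assembly GRCm38.p6), and 48.9% of 55681 probes matched. Spots with outlier flags were left out, and the log2 signals of the other spots of a probe were averaged. The level was this mean minus the 75th percentile of such means over probes that were not controls. A signal printed for a probe with several spots is the plain mean of their signals. A probe counted as detected where the scanner software marked 50% or more of its spots as well above background. A gene in a list was represented by its brightest probe. The genes and lists were chosen with earlier results of these data known. Values are given for all probes of the 10 genes and for at most 4 genes of each other list, chosen by role. Wnt1, Wnt5b, Wnt6 and Wnt10b were added to these after their values had been seen. Wherever a gene stands in 2 lists, it counts in both.

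No test was made, since all samples form 1 group and no probe of the 10 genes had the 10 spots per array needed for a test between arrays. The number of arrays limits the precision. The calculation of levels and SDs was tested on simulated data. Python 3.11.15, pandas 2.3.3, R 4.3.3 and limma 3.58.1 (normexp, on the median spot and background intensities) were used.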

Additional observations from a re-analysis of the deposited data

How the results depend on the processing

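The demand that every spot of a probe be marked was added after the data had been seen. All 10 genes were detected under each of the 7 alternatives for detection. Only the demands that every probe or every spot be marked were stricter than the main rule. The other alternatives could not lower the counts of genes or probes. The number of their probes detected was 17 except where every spot had to be marked (16, without the dimmer probe of Apc). The pathway genes detected were 86, with a range from 84 (every probe of a gene detected) to 97 (the looser mark for positive and significant signals). When 1 replicate was left out, 10 genes, 17 probes and 86 to 88 pathway genes were detected. The median SD of 0.092 was 0.055 after normexp correction, which adds an offset of 50 to every signal, and between 0.045 (without replicate 2) and 0.083 when 1 replicate was left out. In the other 6 settings it was between 0.071 and 0.098. The count of probes with a range above 1 log2 unit was 0 under all 9 alternatives run for it. Some of these could not raise it: leaving out a replicate can only shrink a range. Keeping undetected probes changed nothing, since all 17 were detected. Levels are relative: the median of the array raised all 10 by 3.74 log2 units, the percentile over detected probes shifted them by -1.92, and normexp by -0.30 to 0.59. Quantile normalization moved none of the 10 by more than its SD, and the deposited table moved 1 of them. No paired analysis was possible because the 3 arrays hold a single group. The tests on probes with 10 spots were not run, since none of the 10 genes has one. By the error that the scanner software estimates, the dimmer probes of Apc and Axin2 were the least precise of the 17. Their signals were near the lowest flagged ones, which were between 10.1 and 11.4.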

Other observations

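Of the 22 pathway genes not detected on at least 1 array, 7 spanned over 1 log2 unit: Wnt3a, Wnt10b, Dkk1, Sost, Rspo2, Lgr6 and Ctnna2. They were named after their values had been seen. The share of all undetected genes with such a range was not computed, so the count is not read as a trait of these genes. Wnt10b gave signals of 2.55, 37.3 and 6.41, and its spot lay outside the blocks of replicate 2 with many non-uniform spots. Wnt6, detected on all arrays, gave 80.8, 41.1 and 73.5, the largest SD of the detected ligands at 0.48 log2 units, and its spot lay inside such a block. Replicate 2 deviated most from the middle value in 10 of these 22 genes, replicate 1 in 5 and replicate 3 in 7. The same count over all undetected genes was not made, so nothing particular to these genes is read from it.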
